A study of Tupaia belangeri chinensis with 36 samples.

Results

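The miRNA cluster of miR-182, miR-183 and miR-96 is represented by 5 of the 1210 entries of the miRNA count table: mmu-miR-183-5p, mmu-miR-182-5p, mmu-miR-96-5p, mmu-miR-183-3p and mmu-miR-182-3p. They were taken by name, as every mouse-named arm of these precursors. The rule itself uses no measured value, but the cluster was chosen with earlier results of these data known. The suffixes 5p and 3p mark the arm of the hairpin precursor that a mature miRNA comes from. Small RNA was read in the testis, in the caput (the head of the epididymis, which receives sperm from the testis) and in the cauda (its tail, which stores sperm) of Chinese tree shrews (Tupaia belangeri chinensis). All animals were sexually mature males of 1.5 to 2 years, and the labels name no strain, treatment or genetic change. The groups are TESTIS-NR, CAPUT-NR and CAUDA-NR, taken out of the breeding season in December 2023 (NR), and TESTIS-R, CAPUT-R and CAUDA-R, taken within it in April 2024 (R). Each season was sampled on a single occasion, so season and date of collection cannot be told apart. Each group was deposited with 3 columns, but TESTIS-NR 2 and CAPUT-NR 2 hold, in every row, the average of columns 1 and 3 and were left out. That leaves 16 libraries, n = 2 in TESTIS-NR and CAPUT-NR and n = 3 in the other groups. The series' design text calls the replicates biological.

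The 3 miRNAs of this cluster are cut from a shared primary transcript, whose hairpins lie close together in the genome of bilaterian animals. They have similar seeds, the stretch near the 5' end that pairs with target messenger RNAs, and those of miR-96 and miR-182 are nearly the same. The cluster is best known from sensory epithelia, where mutations in the miR-96 seed cause hearing loss, and it is also expressed in other epithelia and in several carcinomas. In the epididymis, the epithelium that lines the duct secretes the fluid in which sperm mature. Mature miRNAs regulate by lowering the stability and translation of their targets.

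Library totals ran from 2166152 to 14756858 counts, and the testis libraries were the shallowest. Tissue labels were checked against marker miRNAs. The 2 rows of miR-202, a miRNA of Sertoli and other gonadal cells, summed to 17462 to 69432 CPM (the usual depth-scaled unit of counts, here relative to the column total) in the 5 testis libraries and to 8.88 to 384 CPM in the 11 epididymal ones. The 10 rows of the epithelial miR-200 family summed to 211 to 3559 CPM in testis and to 62715 to 121066 CPM in the epididymis. The TESTIS-NR libraries were not alike: the 6 rows of miR-34b, miR-34c and miR-449, abundant in meiotic germ cells and ciliated cells, summed to 341 CPM in TESTIS-NR 1, to 4704 in TESTIS-NR 3 and to 5713 to 7994 in TESTIS-R. The tissue and testis season differences that rest on these libraries are therefore also given without each of them.

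Reads came almost wholly from the 5p arms, and mmu-miR-182-5p was the main product of the cluster in every library. Over the 16 libraries mmu-miR-182-5p held 752492 counts, mmu-miR-183-5p 48235 and mmu-miR-96-5p 7546. The 3p arms held 9 counts each. mmu-miR-182-3p had 2 counts in CAPUT-R 1 and 7 in CAUDA-R 1, and mmu-miR-183-3p had 1 in CAUDA-NR 1, 1 in CAUDA-NR 3, 4 in CAUDA-R 1 and 3 in CAUDA-R 3. Every other library was at 0 for both 3p arms, so they passed no filter on low counts and were not tested further. A read covers a whole mature miRNA, so no level is divided by length.

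mmu-miR-182-5p was lowest in the testis and highest in the cauda of the breeding season. TESTIS-NR 1 held 761 CPM and TESTIS-NR 3 126 CPM, against 341, 285 and 73.4 CPM in TESTIS-R 1, 2 and 3. In the caput, CAPUT-NR 1 held 4554 CPM and CAPUT-NR 3 4489 CPM, against 5151, 3665 and 5059 CPM in CAPUT-R 1, 2 and 3. In the cauda it had 4357, 5068 and 6220 CPM in CAUDA-NR 1, 2 and 3, and 11870, 11427 and 21221 CPM in CAUDA-R 1, 2 and 3. All 11 epididymal libraries therefore lay above all 5 testis libraries, and all 3 CAUDA-R libraries above every other library. In CAUDA-R 3 it was the 9th most abundant of all miRNA entries and took 2.12% of the counts, whereas in TESTIS-R 3 it was in place 168.

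Ordered from low to high, the group means of mmu-miR-182-5p were TESTIS-R (233 ± 141 CPM, SD, n = 3), TESTIS-NR (444 ± 449, n = 2), CAPUT-NR (4522 ± 45.8, n = 2), CAPUT-R (4625 ± 833, n = 3), CAUDA-NR (5215 ± 940, n = 3) and CAUDA-R (14839 ± 5531, n = 3). The libraries of neighbouring groups overlapped within the testis, within the caput and between the caput and CAUDA-NR. They did not overlap between TESTIS-NR and the caput or between CAUDA-NR and CAUDA-R. The order of the caput and CAUDA-NR depended on scaling. With TMM, the scaling used in the tests below, CAUDA-NR (5016 CPM) lay below CAPUT-NR (5793) and CAPUT-R (6189).

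mmu-miR-183-5p followed the same tissues at a lower level. TESTIS-NR 1 held 46.8 CPM and TESTIS-NR 3 9.30 CPM, against 21.8, 14.4 and 5.54 CPM in TESTIS-R 1, 2 and 3. Caput values were 214 CPM in CAPUT-NR 1 and 233 in CAPUT-NR 3, and 286, 248 and 348 CPM in CAPUT-R 1, 2 and 3. Cauda values were 301, 284 and 440 CPM in CAUDA-NR 1, 2 and 3, and 981, 646 and 1384 CPM in CAUDA-R 1, 2 and 3. The groups of the 2 seasons overlapped in the testis, lay apart by a narrow margin in the caput (lowest R 1.06 times the highest NR) and lay apart in the cauda (1.47 times).

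mmu-miR-96-5p, the least abundant of the 3, was near the limit of detection in the testis. It had 28 counts (7.15 CPM, exact 95% Poisson interval 4.75 to 10.3, counting error only) in TESTIS-NR 1 and 0 counts in TESTIS-NR 3. It had 5, 1 and 0 counts in TESTIS-R 1, 2 and 3. For the counts of 0 the same Poisson interval reaches 1.04 CPM in TESTIS-NR 3 and 1.70 CPM in TESTIS-R 3. A floor of 3 counts equals 0.845 and 1.38 CPM in these libraries. In the caput it had 57.3 CPM in CAPUT-NR 1 and 36.1 in CAPUT-NR 3, and 20.1, 26.4 and 38.7 CPM in CAPUT-R 1, 2 and 3. In the cauda it had 71.99, 97.8 and 63.3 CPM in CAUDA-NR 1, 2 and 3, and 145, 90.5 and 185 CPM in CAUDA-R 1, 2 and 3. Seasons overlapped in every tissue, and every epididymal library lay above every testis library. These values are of the mouse-named entry alone. A separate entry named for human miR-96-5p, of untested relation to it, was higher in the testis and is described under the other observations.

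**Figure D1:**
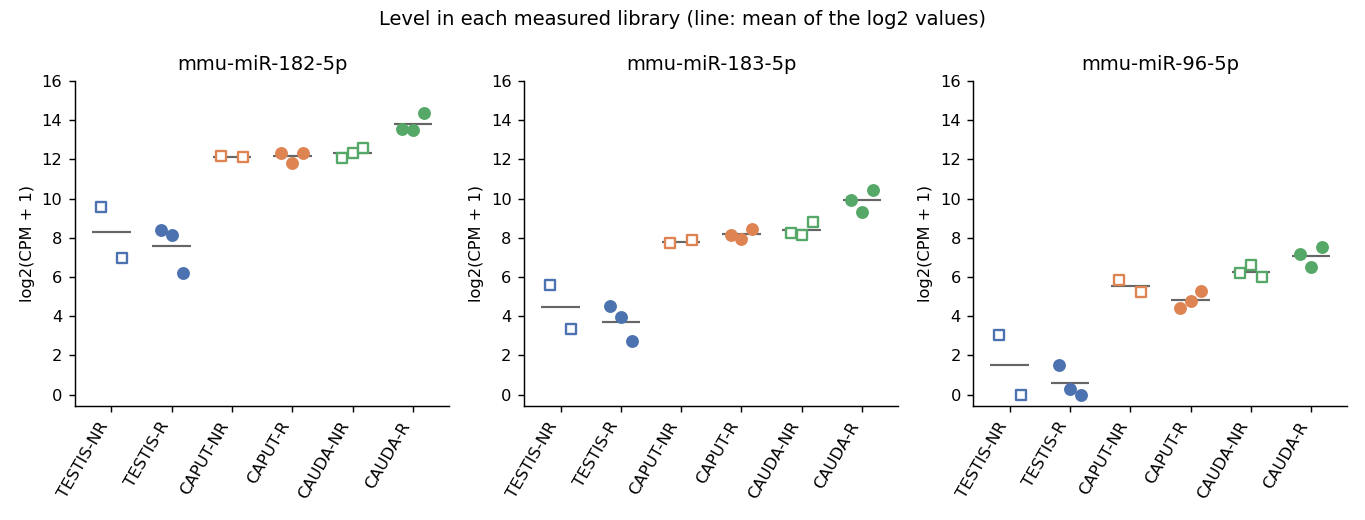
Level of the 3 main members as log2(CPM + 1) in each of the 16 measured libraries, by group; open squares are NR libraries, filled circles R libraries and lines the mean of the log2 values. All 11 epididymal libraries lie above the 5 testis libraries in each panel, and the CAUDA-R libraries are the 3 highest for mmu-miR-182-5p and mmu-miR-183-5p. How many other miRNAs part the tissues in this way was not counted.

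The first comparison asked how the tissues differ, with 6 groups of tissue and season in 1 fit and the tissue difference averaged over both seasons. All 3 main members were higher in the caput than in the testis, by a log2 difference of 4.46 (SE 0.59) for mmu-miR-182-5p, 4.31 (SE 0.54) for mmu-miR-183-5p and 5.12 (SE 1.08) for mmu-miR-96-5p. The adjusted p values of edgeR's quasi-likelihood test, adjusted over all 784 miRNAs tested (Benjamini-Hochberg), were 0.000114, 8.82e-05 and 0.00277. In the cauda the differences from the testis were larger in size, 4.96 (SE 0.60), 5.07 (SE 0.56) and 6.23 (SE 1.14), with edgeR adjusted p of 4.61e-05, 2.54e-05 and 0.000983. Every epididymal library exceeded the highest testis library, by at least 4.82 times for mmu-miR-182-5p, 4.58 times for mmu-miR-183-5p and 2.80 times for mmu-miR-96-5p. How many other miRNAs part the testis from the epididymal libraries in this way was not counted. Whether a tissue holds fewer cells that express the cluster or less of it per cell cannot be told apart in these bulk samples.

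Such calls were common among miRNAs. An adjusted p under 0.05 was reached by 31.6% of the miRNAs tested between caput and testis, and 18.4% were called higher in the caput. Between cauda and testis 33.4% were called and 18% were called higher in the cauda. Lower calls made up 13.3% and 15.4%. With scaling by library total, 113 of 259 caput calls were higher, against 144 of 248 with TMM scaling, and the median log2 difference of all miRNAs moved from -0.15 to -0.74. The 3 members stayed called and higher under both.

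The calls of mmu-miR-182-5p and mmu-miR-183-5p held within each season, where calls were also common among all miRNAs. In the R libraries alone edgeR called 263 of 547 miRNAs between caput and testis, 138 as higher in the caput. Between cauda and testis it called 230 of 547, 123 as higher in the cauda. In the NR libraries alone it called 101 and 161 of 518, 56 and 83 as higher. In the R libraries alone mmu-miR-182-5p differed by 4.97 between caput and testis and by 6.29 between cauda and testis on the log2 scale, and in the NR libraries alone by 3.74 and 3.46. mmu-miR-96-5p was not called in the NR libraries alone, where its differences were 4.06 and 4.35 (edgeR adjusted p 0.143 and 0.101). Without TESTIS-NR 1 the caput and cauda differences from the testis were 5.50 and 5.99 for mmu-miR-182-5p and 5.24 and 5.98 for mmu-miR-183-5p, about 1 log2 unit larger. Without TESTIS-NR 3 they were 3.898 and 4.346 for mmu-miR-182-5p and 3.76 and 4.46 for mmu-miR-183-5p. For mmu-miR-96-5p, 28 of whose testis counts were in TESTIS-NR 1, they were 8.98 and 10.08 without that library, fitted on counts near 0 in the testis, and 4.47 and 5.54 without TESTIS-NR 3. Every one of these differences was called by edgeR.

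Caput and cauda were not called different for any member. The log2 difference of cauda minus caput over both seasons was 0.50 for mmu-miR-182-5p (95% interval -0.54 to 1.54), 0.76 for mmu-miR-183-5p (-0.21 to 1.72) and 1.11 for mmu-miR-96-5p (-0.73 to 2.95). The edgeR adjusted p values were 0.702, 0.385 and 0.552, where 9.44% of the 784 miRNAs were called, 3.83% as higher and 5.61% as lower in the cauda. The 2 seasons gave unlike values: in the NR libraries alone the differences were -0.29, 0.10 and 0.29, and in the R libraries alone 1.32, 1.42 and 1.99, none of them called. In a fit of the libraries of these 2 tissues only, mmu-miR-96-5p was called higher in the cauda (1.11, edgeR adjusted p 0.0279). That fit called more miRNAs, 127 of 620, with 48 higher and 79 lower in the cauda. With scaling by library total 51 of 76 calls between these tissues were higher in the cauda, against 30 of 74 with TMM.

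The second comparison asked how each tissue differs between the seasons, each tissue in its own fit. In the cauda mmu-miR-183-5p and mmu-miR-182-5p had levels about 3 times as high in R as in NR, and both missed the threshold over all miRNAs. For mmu-miR-183-5p the means were 342 ± 85.6 CPM (CAUDA-NR) and 1004 ± 370 CPM (CAUDA-R; SD, n = 3 each), a ratio of means of 2.94. Its log2 change was 1.59 (SE 0.30, 95% interval 0.86 to 2.31), with an edgeR adjusted p of 0.0502. mmu-miR-182-5p had a ratio of means of 2.85 and a log2 change of 1.54 (SE 0.30, 95% interval 0.81 to 2.27), with an edgeR adjusted p of 0.0551. Both were higher in 3 of 3 R libraries than in any NR library.

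mmu-miR-96-5p had 77.7 ± 17.9 CPM in CAUDA-NR and 140.3 ± 47.5 in CAUDA-R (SD, n = 3 each), a ratio of means of 1.81. Its log2 change of 0.84 had an interval from -0.01 to 1.69 and an edgeR adjusted p of 0.291. CAUDA-R 2, at 90.5 CPM, lay below CAUDA-NR 2, at 97.8 CPM.

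Among the 318 mouse-named miRNAs tested in the cauda, mmu-miR-183-5p and mmu-miR-182-5p had the smallest and the next smallest unadjusted p (0.00188 and 0.00218), and mmu-miR-96-5p was in place 47. A larger positive change was fitted for 7 mouse-named miRNAs than for mmu-miR-183-5p and for 9 than for mmu-miR-182-5p. Among all 455 miRNAs tested, whatever their name, a larger change was fitted for 38 and 42. The median log2 change over all 455 tested was 0.05. edgeR called 3.08% of them, 2.2% as higher and 0.879% as lower in R, and none of the called entries had a mouse name. Groups that do not overlap were common: 13% of the 455 had all R libraries above all NR libraries, and 14.3% had them all below.

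The sign of the cauda change depended on no single library, but its size and the p values moved. Leaving out each library in turn gave log2 changes of 1.29 to 1.75 for mmu-miR-183-5p, 1.21 to 1.71 for mmu-miR-182-5p and 0.60 to 1.15 for mmu-miR-96-5p. The lowest values of all 3 came without CAUDA-R 3, the library with the highest levels. edgeR adjusted p ran from 0.0547 to 0.274 for mmu-miR-183-5p and from 0.0746 to 0.267 for mmu-miR-182-5p. DESeq2 called both on the same counts (adjusted p 1.35e-05 and 3.67e-05) at nearly the same log2 changes, 1.59 and 1.55. It called 53 of the 455 miRNAs, 32 as higher in R, where edgeR called 14.

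**Figure D2:**
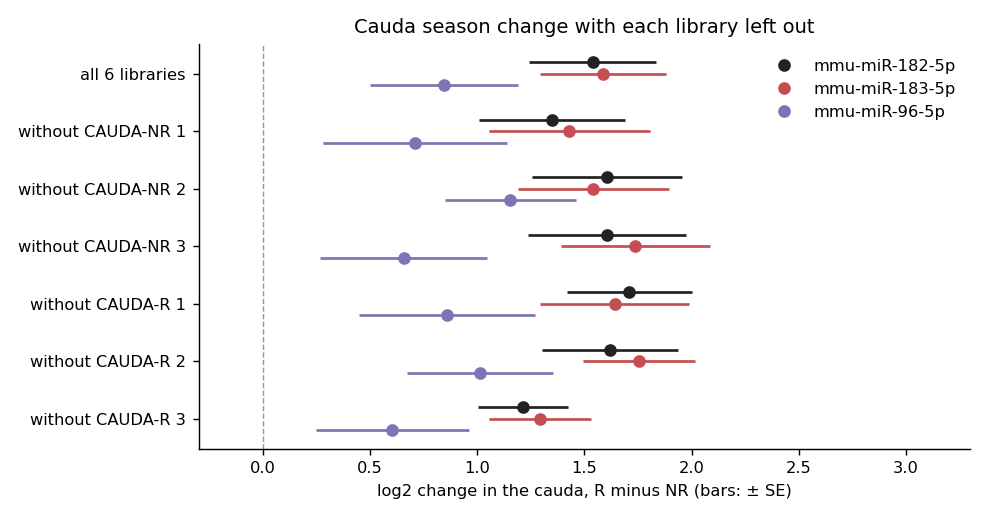
Log2 change of the 3 main members in the cauda (R minus NR, points) with its SE (bars), from all 6 libraries and with each library left out in turn. All points lie above 0, between 0.60 and 1.75, and the values without CAUDA-R 3 are the lowest.

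In the caput no member was called between the seasons. mmu-miR-182-5p had a log2 change of 0.02 (95% interval -0.92 to 0.97, edgeR adjusted p 0.991) in the fit of the caput libraries alone. A change of the size fitted in the cauda, 1.54, lies outside this interval, while the lower end of the cauda interval, 0.81, lies inside. In the fit of all 16 libraries the caput change was 0.10 with a larger SE (0.71 against 0.36). Its interval there is wider and takes in 1.54. In the caput fit the sign turned without CAPUT-NR 3 (-0.07), CAPUT-R 1 (-0.27) or CAPUT-R 3 (-0.01). The mean of mmu-miR-183-5p was 224 ± 13.5 CPM over 2 NR libraries and 294 ± 50.6 CPM over 3 R libraries (SD), a log2 change of 0.36 (95% interval -0.52 to 1.25, adjusted p 0.928). All 3 R libraries were higher than both NR libraries, which held for 13.7% of the 534 caput miRNAs tested, while 9.18% had all R libraries lower. mmu-miR-96-5p averaged 46.7 ± 14.98 CPM (NR) and 28.4 ± 9.45 CPM (R), overlapping, a log2 change of -0.79 (95% interval -1.91 to 0.33, adjusted p 0.778). edgeR called 0% of the caput miRNAs. DESeq2 called 15 of them and none of the members.

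In the testis the 2 members that could be tested had lower mean levels in R, wide intervals and overlapping seasons. All R libraries lay above all NR libraries for 19.2% of the testis miRNAs and below them for 9.88%. mmu-miR-182-5p had a log2 change of -0.91 (SE 0.96, 95% interval -3.39 to 1.57) and mmu-miR-183-5p of -0.99 (SE 0.94, 95% interval -3.40 to 1.43), with edgeR adjusted p of 0.942 and 0.926. edgeR called 0% of the 496 testis miRNAs tested and DESeq2 24 of them, none of the members. Within TESTIS-NR the higher library was 6.03 times the lower for mmu-miR-182-5p, and within TESTIS-R 4.65 times. Without TESTIS-NR 1 the sign turned, to 0.70 for mmu-miR-182-5p and 0.39 for mmu-miR-183-5p, and without TESTIS-NR 3 the changes were -1.67 and -1.71. mmu-miR-96-5p did not pass the filter on low counts in this tissue.

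The difference between tissues in the season change was tested as an interaction in the fit of all 16 libraries. The change in the cauda exceeded that in the caput by 1.41 on the log2 scale for mmu-miR-182-5p (95% interval -0.64 to 3.46), 1.13 for mmu-miR-183-5p (-0.75 to 3.01) and 1.57 for mmu-miR-96-5p (-1.99 to 5.13). None passed (unadjusted p 0.159, 0.216 and 0.357), and edgeR called 0% of the 784 miRNAs. In a fit without the testis libraries the same differences were 1.53, 1.23 and 1.61, with unadjusted p of 0.0102, 0.0241 and 0.0199 and an edgeR adjusted p of 0.667 for each. Against the testis the excess was 2.78 for mmu-miR-182-5p (95% interval 0.71 to 4.84), 2.90 for mmu-miR-183-5p (1.00 to 4.81) and 3.57 for mmu-miR-96-5p (-0.22 to 7.36). Their edgeR adjusted p values were 0.429, 0.393 and 0.521, where 0.128% of the miRNAs were called. Without TESTIS-NR 1 the excess was 0.80 for mmu-miR-182-5p and 1.15 for mmu-miR-183-5p, and that of mmu-miR-96-5p turned to -4.08. Without TESTIS-NR 3 the excess was 3.24, 3.33 and 4.204 for mmu-miR-182-5p, mmu-miR-183-5p and mmu-miR-96-5p, none called. A season change particular to the cauda was thus not shown.

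**Figure D3:**
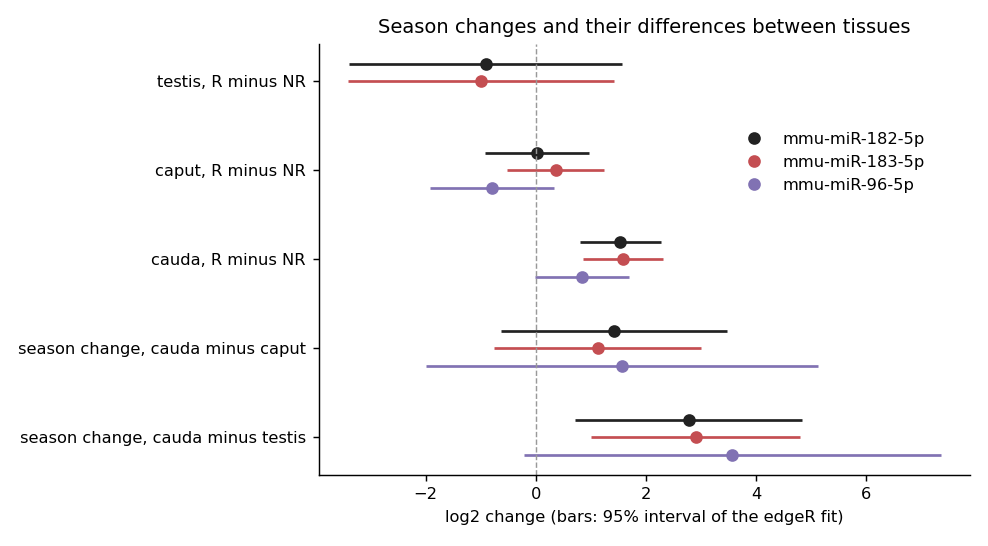
Fitted log2 changes (points) with 95% intervals (bars) of the 3 main members: R minus NR in each tissue, and the difference of that change between tissues. In the cauda the intervals of mmu-miR-182-5p and mmu-miR-183-5p start at 0.81 and 0.86, and all intervals for cauda minus caput span 0; mmu-miR-96-5p was not tested in the testis.

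mmu-miR-182-5p and mmu-miR-183-5p varied little against each other. mmu-miR-182-5p made up 91.3% to 95.1% of the cluster's counts over the 16 libraries, mmu-miR-183-5p 4.44% to 7.55% and mmu-miR-96-5p 0% to 1.79%. There were 12.1 to 21.3 counts of mmu-miR-182-5p per count of mmu-miR-183-5p, while the level of mmu-miR-182-5p itself ranged from 73.4 to 21221 CPM. These ratios were 14.1 to 17.8 in CAUDA-NR, against 12.1 to 17.7 in CAUDA-R, so the cauda seasons overlapped. In the caput they did not: the ratio was 21.3 and 19.3 in CAPUT-NR 1 and 3, and 17.99, 14.8 and 14.5 in CAPUT-R 1, 2 and 3.

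mmu-miR-96-5p varied more against the other 2. The number of mmu-miR-182-5p counts per mmu-miR-96-5p count was 51.8 to 98.3 in CAUDA-NR, against 81.8 to 126 in CAUDA-R, and in the caput 79.5 to 124 in NR and 131 to 257 in R. The caput seasons did not overlap in this ratio, by a narrow margin (124 against 131), with mmu-miR-96-5p the smaller part in R, while the cauda seasons did. In the testis it was 106 in TESTIS-NR 1, 187 in TESTIS-R 1 and 1366 in TESTIS-R 2, each on 28 or fewer counts of mmu-miR-96-5p. The caput gaps in both ratios rest on 2 NR and 3 R libraries and were not tested. How often ratios of other miRNAs part in this way was not counted.

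**Figure D4:**
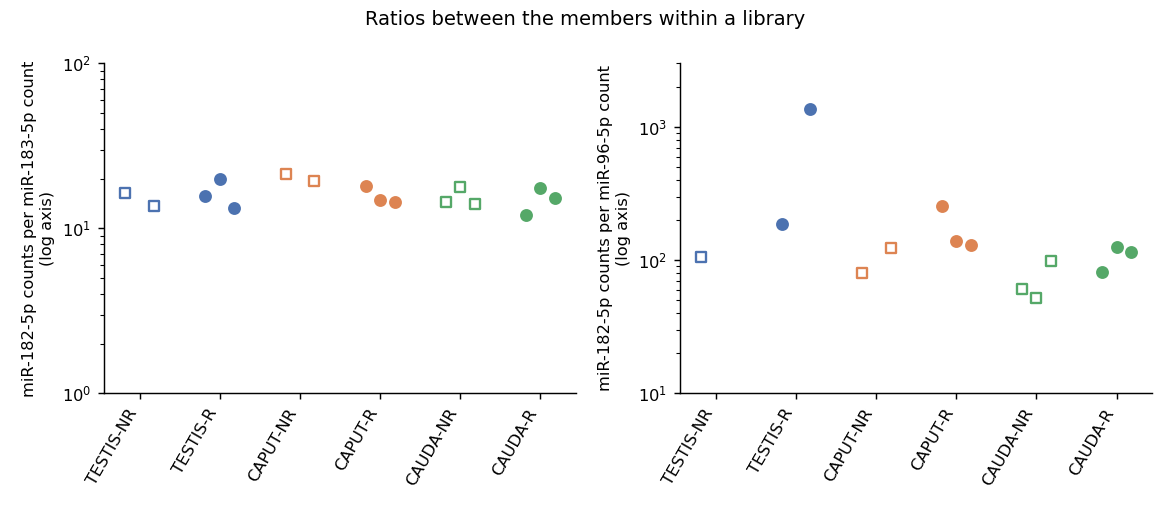
Counts of mmu-miR-182-5p per count of mmu-miR-183-5p (left) and of mmu-miR-96-5p (right) in each measured library, on log axes; 2 testis libraries with 0 counts of mmu-miR-96-5p are absent on the right. The left ratio lies between 12.1 and 21.3 in all 16 libraries, and the right one between 51.8 and 1366 in 14.

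Across the 16 libraries each main member was most like the other members. On the log2(CPM + 1) scale Pearson's r was 0.995 between mmu-miR-182-5p and mmu-miR-183-5p, 0.975 between mmu-miR-183-5p and mmu-miR-96-5p and 0.973 between mmu-miR-182-5p and mmu-miR-96-5p. For each of the 3, the other 2 took the first 2 places among 223 other mouse-named miRNAs with a mean of at least 10 CPM. The libraries form 3 tissues of unlike level, so these values mostly describe the step from testis to epididymis. Within the cauda r was 0.974, 0.820 and 0.826 for the same pairs (6 libraries), within the testis 0.986, 0.942 and 0.885 (5 libraries), and within the caput, where levels varied little, 0.528, -0.358 and 0.013 (5 libraries).

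Outside the cluster the miRNAs most like mmu-miR-182-5p were mmu-miR-200b-3p, an epithelial miRNA (r = 0.955), mmu-miR-205-5p, a miRNA of basal and stratified epithelia (0.955), and mmu-miR-181d-5p (0.950). Those most like mmu-miR-183-5p were mmu-miR-200c-3p (0.945), mmu-miR-200b-3p (0.945) and mmu-miR-23b-3p (0.944). Those most like mmu-miR-96-5p were mmu-miR-181c-5p (0.965), mmu-miR-181d-5p (0.955) and mmu-miR-23b-3p (0.953). They had no cauda season change of the members' size: the log2 changes there were 0.16 for mmu-miR-200b-3p, -0.37 for mmu-miR-205-5p, 0.17 for mmu-miR-200c-3p, 0.05 for mmu-miR-181d-5p, 0.16 for mmu-miR-23b-3p and -0.08 for mmu-miR-181c-5p, none called by edgeR. The least like were mmu-miR-202-3p for mmu-miR-182-5p and mmu-miR-183-5p (-0.944 and -0.943), followed by mmu-miR-16-1-3p (-0.942 and -0.936), and mmu-miR-181a-1-3p for mmu-miR-96-5p (-0.960), followed by mmu-miR-202-3p (-0.932).

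The miR-200 family, which maintains the epithelial state, was also higher in the epididymis than in the testis. All 10 of its rows (miR-200a, miR-200b, miR-200c, miR-141 and miR-429) were called higher in caput than in testis and in cauda than in testis, with median log2 differences of 6.50 and 5.36, where the medians over all 784 miRNAs were -0.15 and -0.28. Over the cauda libraries its summed level was 62715 to 86216 CPM in NR and 64735 to 96639 in R, with 0 of 10 rows called between seasons and a median log2 change of 0.20. The summed level of the cluster was 5.49%, 8.69% and 8.71% of the family's in the CAUDA-NR libraries, and between 13.4% and 29.7% of it in all 3 CAUDA-R libraries, with no overlap. Of the single miRNAs tested in the cauda, 13% had all R libraries above all NR libraries and 14.3% had them all below. How often ratios of other miRNA sets part in this way was not counted. Neither the members nor the family's rows were called by edgeR between the cauda seasons, and the difference between the 2 sets was not tested. In the caput the cluster stood at 3.25% to 5.99%, with overlapping seasons.

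In the testis the libraries ranked alike for the cluster and for the epithelial miRNAs. The cluster summed to 815 CPM in TESTIS-NR 1, 365 in TESTIS-R 1, 299 in TESTIS-R 2, 136 in TESTIS-NR 3 and 78.9 in TESTIS-R 3. In the same order of libraries the miR-200 family had 3559, 2237, 812, 282 and 211 CPM, and the 3 rows of miR-203 and miR-205 had 785, 423, 283, 153 and 105 CPM. The part of epithelial RNA in the testis values of the cluster was not tested.

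**Figure D5:**
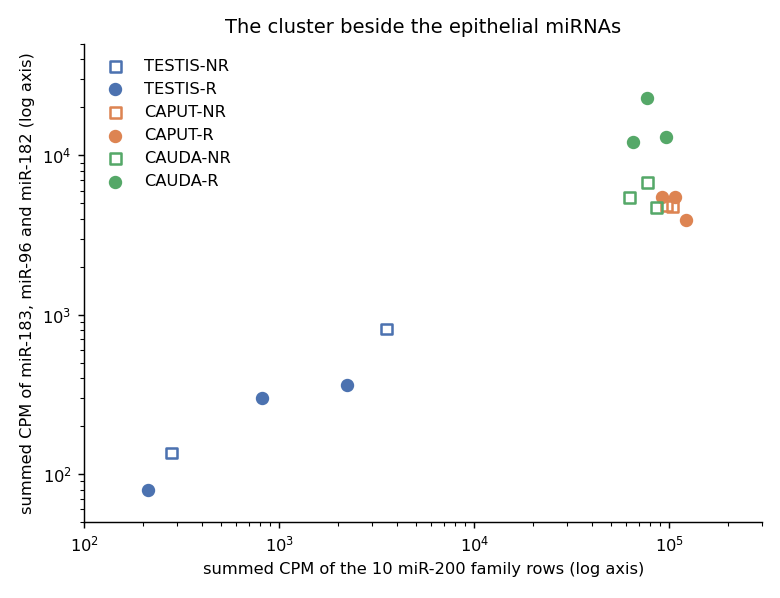
Summed CPM of the cluster against the summed CPM of the 10 miR-200 family rows in each measured library, both on log axes; open squares are NR and filled circles R libraries. The testis libraries lie on a rising line from 78.9 to 815 CPM of the cluster, and the 3 CAUDA-R libraries lie above the CAUDA-NR libraries at a like level of the miR-200 family.

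Markers of other cell types were set beside the cauda change, and 0 of 55 tested rows of the 10 marker lists were called between the seasons there. The miR-34b, miR-34c and miR-449 rows of germ and ciliated cells had a median log2 change of 1.55 over 5 tested rows, all positive, near that of mmu-miR-182-5p. Their sum was 324 to 674 CPM in CAUDA-NR, against 579 to 1254 in CAUDA-R, overlapping, and their part in the cluster's change was not tested. The leukocyte rows (miR-142, miR-146a, miR-150, miR-155 and miR-223) had a median of -0.99, with 0 of 7 positive, and sums of 3891 to 8924 CPM in NR and 2097 to 5377 in R. Endothelial miR-126 did not overlap between the seasons, with 27061 to 32551 CPM in NR and 18224 to 24971 in R. Mesenchymal miR-199 and miR-214 did not overlap either, with 14543 to 21439 CPM in NR and 11991 to 12955 in R. In that list mmu-miR-199a-3p and mmu-miR-199b-3p had equal totals (688946 counts each) and equal group means, so the sum counts this level in both rows. Of all 455 miRNAs tested in the cauda, 14.3% had all R libraries below all NR libraries.

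The other lists overlapped between the cauda seasons. Smooth and striated muscle rows summed to 29806 to 38782 CPM in NR and 32376 to 45649 in R, and miR-203 and miR-205 to 12841 to 17247 and 9175 to 13209. Erythrocyte rows summed to 96.3 to 289 CPM and 164 to 303, and miR-202, the only Sertoli cell and testis miRNA of its list that was found, to 8.88 to 34.1 and 9.06 to 37.3. Among the erythrocyte rows miR-486a and miR-486b had equal totals and group means in each arm, so that sum also counts a level in both. Retinal, inner ear and neural miRNAs (miR-204, miR-211, miR-124, miR-9, miR-184 and miR-7), other tissues in which the cluster is known, summed to 1467 to 1938 CPM and 1393 to 2055, with a median log2 change of 0.05 over 7 rows.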

How the data were processed

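Small RNA libraries of single reads of 50 nt were made from tissue RNA with an integrity number of at least 7, per the labels' protocols. The authors deposited raw counts per miRNA, 1 column per sample, without normalization. Counting used featureCounts and bedtools, per the submitters' processing notes; aligner, genome build and versions were not given in the sources used here. Of 18 columns, 2 equalled the mean of the other 2 of their group in every row (a rounded mean may be the next whole number up) and were left out; in the other columns at most 45.1% of rows did so.

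The quasi-likelihood test of edgeR 4.0.16 (R 4.3.3) was run on the whole table after TMM scaling and edgeR's default low-count filter, and an adjusted p under 0.05 was called. SE is the log2 change divided by the root of F. Levels are CPM of the column total. Likeness is Pearson's r on log2(CPM + 1) over mouse-named miRNAs with a mean of at least 10 CPM, and the 3 highest and 2 lowest of each member are named. Alternatives were other scaling, no filter, DESeq2 1.42.0, averaged columns kept, a replicate block, other sets of libraries in the fit and leaving out each library. The scripts were tested on simulated data. The members and the 10 marker lists were chosen with earlier results of these data known. Testis libraries gave 2166152 to 4800500 counts and the others 6528407 to 14756858; intervals and floors of 3 counts cover counting error only. Sequences, target genes and the other tables were not analysed here.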

Additional observations from a re-analysis of the deposited data

How the results depend on the processing

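The fitted log2 differences of the 3 main members kept their sign under other scaling, no filter, DESeq2, averaged columns kept and other sets of libraries, except mmu-miR-182-5p between cauda and caput, -0.29 in the NR libraries alone. DESeq2 brought the cauda changes past the threshold (1.59 for mmu-miR-183-5p and 1.55 for mmu-miR-182-5p), and a fit of 2 tissues did so for mmu-miR-96-5p between cauda and caput (1.11). In the NR libraries alone mmu-miR-96-5p lost its calls against the testis (4.06 for caput, 4.35 for cauda). The cause was not tested. With 1 library left out, signs turned without TESTIS-NR 1 (testis change 0.39 for mmu-miR-183-5p and 0.70 for mmu-miR-182-5p, cauda minus testis -4.08 for mmu-miR-96-5p) and for the caput change of mmu-miR-182-5p without CAPUT-NR 3 (-0.07), CAPUT-R 1 (-0.27) or CAPUT-R 3 (-0.01). These results ranged, with each library left out, from -1.71 to 0.39, from -1.67 to 0.70, from -4.08 to 5.74 and from -0.27 to 0.27 in that order. No other call or sign changed in these fits.

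The replicate number as a block changed no call of a member (cauda change 1.55 and 1.50, edgeR adjusted p 0.356 for both mmu-miR-183-5p and mmu-miR-182-5p). Libraries of 1 number did not deviate together in every pair. Between the seasons r was 0.003 to 0.085 in the cauda, 0.050 and 0.001 in the testis, and -0.083 and -0.149 in the caput. Between tissues of the NR season it ran from -0.029 to 0.097. Between tissues of the R season it ran from -0.004 (cauda and testis, number 1) to 0.242 (caput and testis, number 3). Libraries of different numbers were not set against each other in this way, so these values cannot show whether libraries of 1 number belong together. The main fits did not use the numbers and treated all libraries as independent.

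Counts of called miRNAs moved more. The 14 of the cauda season change became 53 with DESeq2, 1 with no filter, 0 with the replicate block or all 16 libraries in 1 fit, and 0 to 24 with 1 library left out. The testis gave 24 with DESeq2, 9 with averaged columns and 1 in the joint fit, and the caput 15 and 3, where edgeR called 0. Between caput and testis the 248 became 376 with averaged columns and 101 in NR alone, and the 262 between cauda and testis 161 in NR alone. The 74 between cauda and caput became 158 with DESeq2, 125 with averaged columns, 127 from 2 tissues, 49 with the block, 3 in NR alone, and 42 and 45 without CAPUT-NR 1 or 3. The interactions gave 13 and 31 with DESeq2 and 0 to 6 otherwise. Levels in the caput depended on scaling: with TMM mmu-miR-182-5p had 5793 CPM in CAPUT-NR and 6189 in CAPUT-R, and mmu-miR-183-5p 286 and 387. In CAUDA-NR mmu-miR-182-5p had 5016 CPM with TMM, below both caput groups, and mmu-miR-183-5p had 326 CPM, between them.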

Other observations

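Besides the members, 3 entries with the submitters' prefix for new miRNAs carry the names of these precursors. The one named for human miR-96-5p had the opposite distribution to mmu-miR-96-5p. TESTIS-NR 1 held 741 CPM of it and TESTIS-NR 3 717 CPM, against 603, 682 and 1052 CPM in TESTIS-R 1, 2 and 3. In the epididymis it had 6.30 to 34.3 CPM in the caput and 11.4 to 81.5 CPM in the cauda, where CAUDA-R 1 was the highest library. It was lower in the caput than in the testis by a log2 difference of -4.58 (SE 0.60, edgeR adjusted p 0.000112) and lower in the cauda by -4.46 (SE 0.53, adjusted p 3.63e-05). In TESTIS-NR 3 and TESTIS-R 3, where mmu-miR-96-5p had 0 counts, it had 2544 and 2279 counts. Its sequence was not used here, and its relation to miR-96 was not tested.

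The other 2 entries, named for the 3p arms of miR-96 and miR-182, held 16 and 17 counts in all, each in 3 of 16 libraries.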
